A study of Mus musculus with 6 samples.

Results

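The genes described here encode the subunits of the mitochondrial oxidative phosphorylation complexes, together with 9 assembly and related genes whose symbols share the same stems. They were selected by symbol (Nduf genes of the A, B, C, S and V series, Sdha to Sdhd, Uqcr genes, Cox4 to Cox8 genes and Atp5 genes). Of 92 symbols that matched, 89 reached an FPKM (fragments per kilobase of transcript, scaled to the reads aligned) of 1 or more in some library and were kept, of 13064 genes that passed the same filter and 23946 genes in the table. They were thus chosen by their own FPKM as well as by name, so their presence in these cells is not a finding. Cox7b2, Cox8b and Cox8c did not pass. The highest FPKM of Cox8b, the nearest gene outside the limit, was 0.301, and the nearest genes inside it were Cox6a2 at 2.61 and Ndufa4l2 at 3.38. The kept genes comprise 38 named for complex I, 4 for complex II, 8 for complex III, 15 for complex IV, 15 for complex V and 9 in the assembly group (Ndufaf1 to Ndufaf7, Atp5s and Atp5sl), and 78 of the 89 are structural subunits.

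Macrophages were sorted as CD45+CD11b+F4/80+ cells from omentum (OM) and from mesenteric adipose tissue (MY) of female C57BL/6 mice of 6 to 8 weeks, and their RNA was sequenced. Both tissues were taken from uninjected mice (naive) and from mice 24 h and 7 d after intraperitoneal injection of ID8 cells, a mouse ovarian carcinoma line of the same strain background. The 9 mice were processed as pools of 3, and each of the 6 conditions is 1 library. No replicate spread can therefore be estimated, no test was made, and every difference given here describes a pair of libraries. The sort took macrophages as 1 class, with no finer subset separated. Differences are between values of log2(FPKM + 1), a scale on which weakly expressed genes seem to change less than they do, and a difference of at least 1 on this scale (2-fold) is called past the threshold.

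Oxidative phosphorylation passes electrons from NADH and succinate along complexes I to IV of the inner mitochondrial membrane to oxygen, and ATP synthase (complex V) uses the proton gradient so formed to make ATP. Complex I takes electrons from NADH, complex II from succinate as part of the tricarboxylic acid (TCA) cycle, complex III passes them to cytochrome c and complex IV to oxygen. A few subunits of complexes I, III, IV and V are encoded in mitochondrial DNA, but all others, including those described here, come from nuclear genes on many chromosomes. The mitochondrially encoded subunits were not analysed here. In macrophages, inflammatory activation is known for a shift towards glycolysis and alternative activation for sustained oxidative metabolism, and several subunits of complex IV exist as paralogues that are used in particular tissues.

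The sort markers were present in every library. Ptprc, which encodes CD45, ranged from 106 to 208 FPKM, Itgam, which encodes CD11b, from 27.8 to 151 FPKM, and Emr1, which encodes F4/80, from 20.5 to 135 FPKM. Emr1 stood at 27.4, 135 and 26.5 FPKM in OM naive, 24 h and 7 d and at 20.5, 68.6 and 37.5 FPKM in MY naive, 24 h and 7 d, so both 24 h libraries were the highest of their tissue. Markers of other cell types were also present. The B cell markers Cd79a, Cd79b and Ms4a1 summed to between 469 and 3742 FPKM, the 5 neutrophil markers to between 228 and 14516 FPKM, the 4 natural killer cell markers to between 28.6 and 1489 FPKM and the 5 T cell markers found in the table to between 22.4 and 838 FPKM. In bulk RNA, fewer cells of a type and less RNA per cell cannot be told apart. The FPKM of all genes summed to between 526887 and 713863 per library, highest in OM 24 h.

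The subunit genes were among the more abundant genes of these cells. Of the 89, 86 reached 1 FPKM in all libraries, 78 reached 10 FPKM in all libraries and 56 averaged at least 100, a level that 961 of the 13064 genes reached. As FPKM is scaled by length, levels can be compared roughly between genes. The ranks of genes with near copies in the genome, Atp5l and Ndufs5 among them, are uncertain for the reason given further on. In complex I the highest mean was that of Ndufa4, a subunit named for complex I and now placed with complex IV, at 416, 522 and 555 FPKM in OM naive, 24 h and 7 d and 437, 458 and 453 FPKM in MY naive, 24 h and 7 d. Genes are grouped by symbol here, so Ndufa4 is counted in the sums and medians of complex I and not of complex IV. The lowest mean in complex I was that of its paralogue Ndufa4l2, described further on. In complex III Uqcrq was the highest (311, 494 and 348 FPKM in OM, 364, 422 and 309 FPKM in MY) and Uqcrc2, a core protein, the lowest (74.6, 70.9 and 72.4 FPKM in OM, 70.7, 76.2 and 90.4 FPKM in MY). In complex IV Cox4i1, the common form of subunit 4, was the highest (606, 961 and 706 FPKM in OM, 687, 1009 and 727 FPKM in MY) and Cox6a2, the muscle form of subunit 6a, the lowest. In complex V Atp5b, which encodes the catalytic beta subunit of F1, was the highest (688, 694 and 657 FPKM in OM, 588, 538 and 735 FPKM in MY) and Atp5l the lowest (49.99, 70.2 and 60.5 FPKM in OM, 74.99, 93.3 and 54.9 FPKM in MY). The assembly group was lower as a group, with a median between 9.29 and 13.4 FPKM in each library against at least 126 FPKM for complex I, although its highest gene exceeded the subunits Ndufs5 and Ndufa11 on average. Its highest gene, Ndufaf3, stood at 29.5, 25.01 and 28.1 FPKM in OM and 36.1, 30.7 and 27.9 FPKM in MY, and its lowest, Atp5s, at between 3.02 and 4.78 FPKM.

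Summed over the 89 genes, FPKM stood at 16544 in OM naive, 22497 in OM 24 h and 17659 in OM 7 d, and at 18104 in MY naive, 19815 in MY 24 h and 16428 in MY 7 d. OM 24 h thus held the highest sum and MY 7 d the lowest. As a share of all FPKM in the library the genes took 2.67%, 3.15% and 3.15% in OM and 3.44%, 3.46% and 3.06% in MY, so the OM 24 h library did not exceed the OM 7 d library on this measure. Against the naive library of its tissue, the sum in OM 24 h was 1.34 times as high for complex I, 1.39 times for complex II, 1.43 times for complex III, 1.496 times for complex IV and 1.25 times for complex V, while the assembly group stood at 0.893 times. In MY 7 d, complex IV stood at 0.806 times its naive sum and complex V at 1.001 times. The plot of summed FPKM by complex shows these values.

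**Figure D1:**
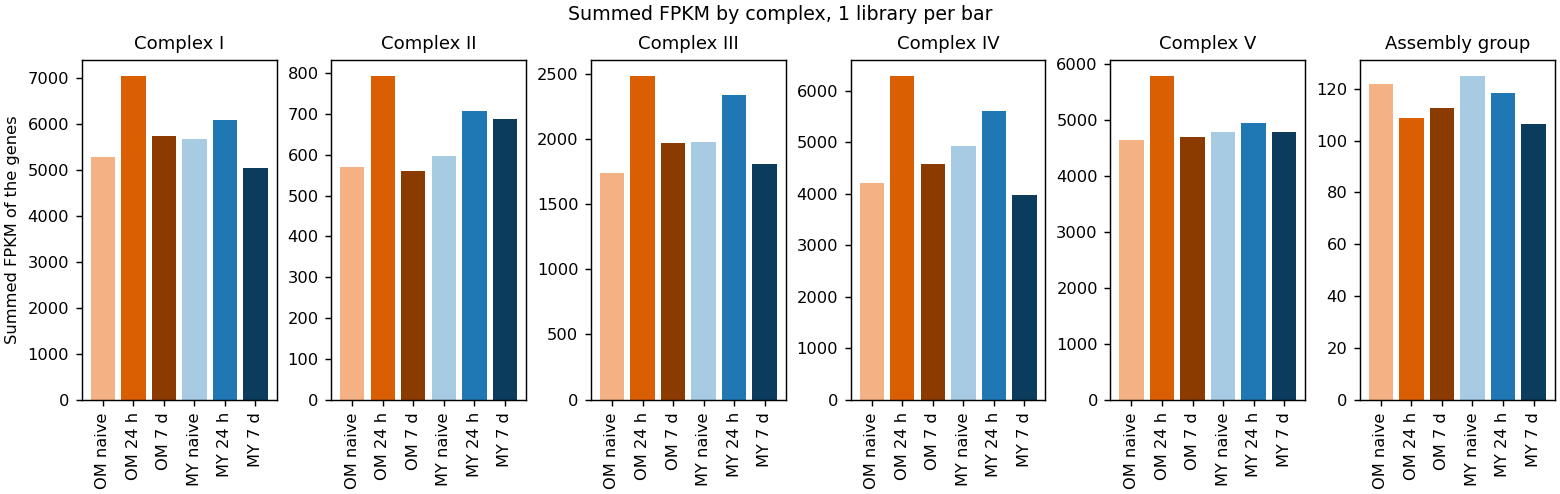
Summed FPKM (vertical axis, from 0, with its own scale in each panel) of the oxidative phosphorylation genes of each complex and of the assembly group in each of the 6 libraries (OM, omentum; MY, mesenteric adipose tissue; 1 bar per library, no replicates). OM 24 h is the tallest of the 6 bars in complexes I to V, and MY naive is the tallest in the assembly group.

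At 24 h in the omentum, most subunit genes stood above the naive library by a small amount. The median difference over the 89 genes was 0.35 (interquartile range 0.17 to 0.57), where all 13064 genes had a median of 0.00, and 76 of the 89 were higher against 49.4% of all genes. The 905 other genes averaging at least 100 FPKM stood at 0.08, with 56.1% higher. Few differences among the 89 were large. Only Cox7a1 was at least 2-fold higher, where 11.9% of all genes were, and only Ndufa4l2 was at least 2-fold lower, where 6.45% were. At 1.5-fold, 20 of the 89 were higher, a share of 22.5%, close to the 20.8% of all genes. Higher values were thus common among these genes, but few were large. When the libraries were rescaled to equal sums, the median of all genes moved to −0.17 and that of the 89 genes to 0.15. The latter is 0.32 above all genes. After this rescaling 62 of 89 were higher against 39.8% of all genes. The study's naive omental library also serves as the control at 7 d, so the comparisons at both times share it.

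The complexes did not stand at the same distance. The medians in OM 24 h against OM naive were 0.33 for complex I, 0.54 for complex II, 0.45 for complex III, 0.57 for complex IV and 0.35 for complex V, and −0.18 for the assembly group. Rescaled to equal sums, the 5 complexes kept positive medians between 0.14 and 0.37, and the assembly group stood at −0.37. In complex I all 30 accessory subunits, Ndufa4 included, were higher, with a median of 0.34, against 5 of the 7 core subunits, with a median of 0.22. The largest differences in complex I were those of the accessory subunits Ndufb8, Ndufa8 and Ndufc2. Ndufb8 stood at 217, 413 and 278 FPKM in OM naive, 24 h and 7 d and at 220, 273 and 220 FPKM in MY naive, 24 h and 7 d, a difference of 0.93 at 24 h in the omentum. Ndufa8 stood at 136, 243 and 175 FPKM in OM and 167, 202 and 164 FPKM in MY, with a difference of 0.83. Ndufc2 stood at 160, 280 and 187 FPKM in OM and 141, 155 and 133 FPKM in MY, with a difference of 0.81. In each of these 3 genes OM 24 h was the highest of the 6 libraries, and in Ndufc2 the omental and mesenteric libraries did not overlap. Ndufs1, the largest core subunit of complex I, went the other way, at 35.5, 27.6 and 32.1 FPKM in OM and 36.1, 36.8 and 39.0 FPKM in MY, a difference of −0.35.

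Complex II has 4 subunits, the catalytic Sdha and Sdhb and the membrane anchors Sdhc and Sdhd, all encoded in the nucleus. Sdhc stood at 108, 179 and 113 FPKM in OM and 110, 114 and 110 FPKM in MY, so OM 24 h (difference 0.73) was apart from the other 5 libraries. Sdhd stood at 144, 214 and 160 FPKM in OM and 148, 215 and 177 FPKM in MY, so both 24 h libraries were the highest of their tissue, with differences of 0.57 and 0.53. Sdhb stood at 194, 276 and 171 FPKM in OM and 208, 231 and 228 FPKM in MY, a difference of 0.51 in OM 24 h. Sdha, the flavoprotein, was level in the omentum, at 126, 124 and 116 FPKM, and stood at 129, 148 and 173 FPKM in MY, where 7 d was the highest (difference 0.42). All 3 omental values of Sdha lay below all 3 mesenteric ones, with −0.03 on the log2 scale between the nearest libraries (omental minus mesenteric).

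In complex III the core proteins Uqcrc1 and Uqcrc2 stood at 0.17 and −0.07 in OM 24 h and Uqcrfs1, the Rieske iron-sulphur protein, at 0.13, whereas all 5 of the small subunits were higher, with a median of 0.67. Uqcr10 gave the largest difference, 0.75, at 262, 443 and 396 FPKM in OM and 346, 403 and 306 FPKM in MY. In complex IV all 11 of the common subunits were higher in OM 24 h, with a median of 0.57. Cox8a led them, at 573, 997 and 657 FPKM in OM and 686, 737 and 530 FPKM in MY, a difference of 0.80. In complex V all 15 subunits were higher. The median was 0.18 over the 5 F1 subunits and 0.43 over the 10 stalk and membrane subunits. Rescaled to equal sums, the F1 median was −0.02 with 1 of 5 higher, and that of the stalk and membrane subunits 0.23 with 10 of 10 higher, so the sign for F1 depended on the scaling. Among the 3 genes for subunit c, which encode the same mature protein, Atp5g3 was the most abundant, at 405, 641 and 498 FPKM in OM and 501, 593 and 538 FPKM in MY. Atp5g1 stood at 174, 224 and 180 FPKM in OM and 136, 125 and 148 FPKM in MY, with every omental value above every mesenteric one. Atp5g2 ranged from 68.0 to 98.8 FPKM.

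In the assembly group 3 of 9 genes were higher in OM 24 h. Ndufaf4, a complex I assembly factor, stood at 7.61, 4.78 and 5.64 FPKM in OM and 6.58, 5.42 and 4.47 FPKM in MY, a difference of −0.58 at 24 h in the omentum. Ndufaf7, an arginine methyltransferase that acts on complex I, stood at 9.88, 12.4 and 13.4 FPKM in OM and 10.3, 10.9 and 9.29 FPKM in MY, a difference of 0.30.

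**Figure D2:**
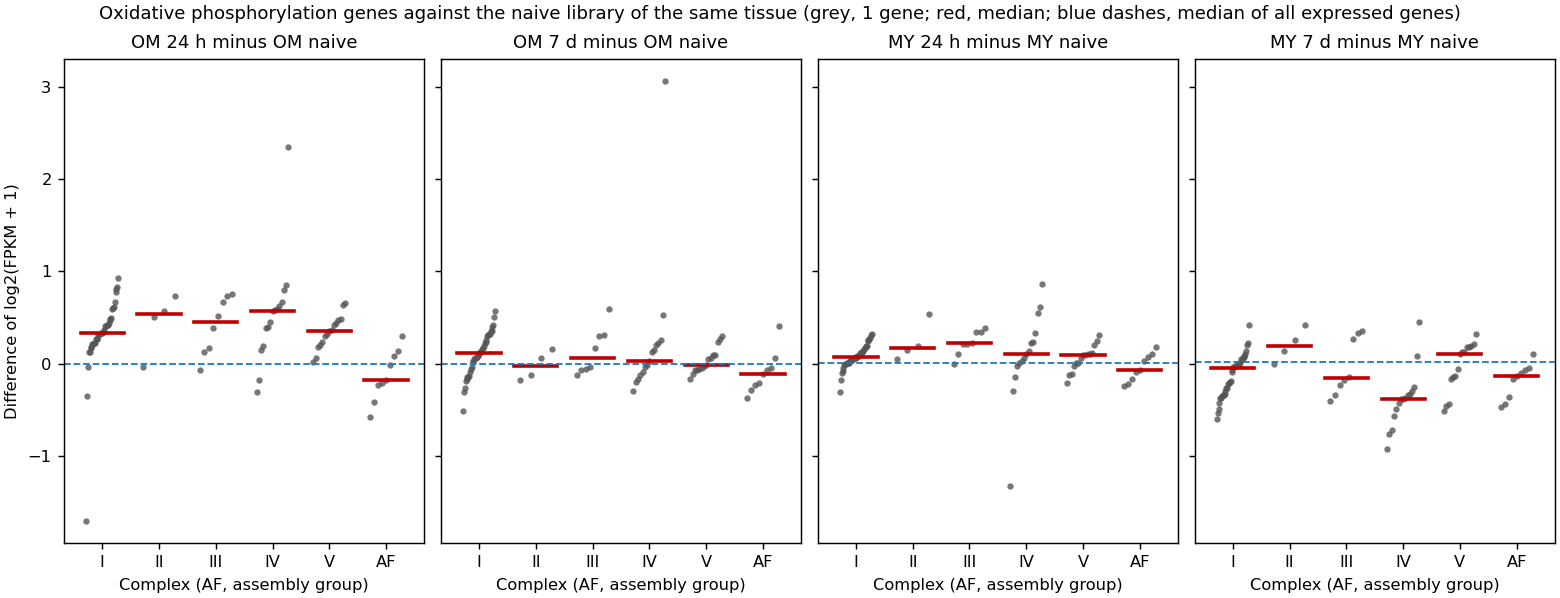
Differences of log2(FPKM + 1) (vertical axis) of the oxidative phosphorylation genes, by complex (horizontal axis; AF, assembly group), for OM 24 h, OM 7 d, MY 24 h and MY 7 d against the naive library of the same tissue. Grey points are genes, red bars group medians and blue dashes the median of all expressed genes; in OM 24 h the medians of complexes I to V lie between 0.33 and 0.57 and that of the assembly group at −0.18, and in MY 7 d complex IV lies at −0.38.

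Markers of several cell types moved between the same omental libraries. The monocyte markers were mixed from OM naive to OM 24 h. Plac8 went from 1060 to 386 FPKM, Ccr2 from 137 to 303 FPKM and Ly6c2 from 164 to 241 FPKM. From OM naive to OM 24 h, the 6 macrophage markers went from a sum of 867 to 4687 FPKM, the 5 neutrophil markers from 5828 to 13573 FPKM, the 3 B cell markers from 3742 to 850.2 FPKM and the 4 natural killer cell markers from 305 to 28.6 FPKM. At 7 d the macrophage sum was 530 FPKM, the B cell sum 2285 FPKM and the neutrophil sum 14516 FPKM. Most of this neutrophil sum was S100a8 and S100a9, at 7826 and 4836 FPKM in OM 24 h and 8381 and 5621 FPKM in OM 7 d. The other neutrophil markers, Retnlg, Csf3r and Cxcr2, were lower at 7 d than at 24 h. They went from 872, 24.1 and 14.0 FPKM to 501, 9.36 and 3.43 FPKM. The part of these changes in the values of the subunit genes was not tested.

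At 7 d in the omentum the median difference of the subunit genes from naive was small. The median difference was 0.06, with 50 of 89 higher against 49.2% of all genes. The 905 other genes averaging at least 100 FPKM stood lower, at −0.20, with 27.6% higher than naive. Of the 89, Cox7a1 alone was at least 2-fold higher, where 11.0% of all genes were, and none was at least 2-fold lower, where 1.96% were. The medians were 0.11 for complex I, −0.03 for complex II, 0.06 for complex III, 0.02 for complex IV, −0.01 for complex V and −0.11 for the assembly group. Rescaling to equal sums moved all genes to 0.12 and the 89 genes to 0.20, with 73 of 89 higher against 61.6% of all genes, and turned the small negative medians of complexes II and V and the assembly group positive. After Cox7a1, the highest were Uqcr10 at 0.60 and Ndufb9 at 0.56, and the lowest was Ndufs5 at −0.51.

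In the mesentery at 24 h the subunit genes differed little from naive. The median was 0.08, with 67 of 89 higher against 50.3% of all genes. Rescaled to equal sums it was −0.04, where all genes stood at −0.09, with 33 of 89 higher against 39.4% of all genes. None was at least 2-fold higher, where 2.80% of all genes were, and Cox6a2 alone was at least 2-fold lower, where 1.52% were. The medians were 0.07 for complex I, 0.17 for complex II, 0.22 for complex III, 0.10 for complex IV, 0.09 for complex V and −0.08 for the assembly group, and those of complexes I, IV and V turned negative under the rescaling. Cox4i1 (difference 0.55) and Cox7a2l (0.62), which encodes a factor in the joining of complexes III and IV, stood out among the common complex IV genes. Cox7a2l was at 81.4, 92.7 and 82.7 FPKM in OM and 87.0, 134 and 119 FPKM in MY, so both injected mesenteric libraries were above the other 4.

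In the mesentery at 7 d the complexes went different ways. The median over the 89 genes was −0.14, with 29 higher against 52.1% of all genes, and no gene was at least 2-fold higher or lower, where 0.498% and 2.29% of all genes were. Complex IV had the lowest median, −0.38, with 2 of 15 higher, and complex III stood at −0.16, complex I at −0.05 and the assembly group at −0.14. Complex II (0.19) and complex V (0.10) were above 0. These signs held when the libraries were rescaled. Cox5a stood at 679, 853 and 457 FPKM in MY naive, 24 h and 7 d (difference −0.57 at 7 d) against 375, 561 and 304 FPKM in OM, and it peaked at 24 h in both tissues. Cox6c stood at 530, 624 and 406 FPKM in MY (difference −0.39) and 477, 735 and 687 FPKM in OM. Ndufb3, an accessory subunit of complex I, stood at 164, 173 and 108 FPKM in MY (difference −0.60) and 139, 173 and 131 FPKM in OM. Within complex III the core proteins Uqcrc1 (0.33) and Uqcrc2 (0.35) were higher at 7 d and all 5 of the small subunits lower, with a median of −0.23. Within complex V the F1 subunits had a median of 0.18 and the stalk and membrane subunits one of −0.14.

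In the MY 7 d library short genes stood lower than longer ones, among the subunits and among other genes. The subunit genes have short transcripts, with a median of 892 bases over the 86 that matched the GENCODE M1 annotation (Ndufaf5 to Ndufaf7 did not) against 2732 bases over the 11851 genes that matched. Among the 50 with transcripts under 1000 bases the median in MY 7 d against naive was −0.28, among the 28 of 1000 to under 2500 bases it was 0.09 and among the 8 of 2500 bases and over −0.02. The 870 other expressed genes under 1000 bases also stood lower, at −0.13, against 0.02 for the 4335 of 1000 to under 2500 bases and 0.06 for the 6560 of 2500 bases and over. In OM 24 h against naive, the genes stood at 0.42 under 1000 bases, 0.27 at 1000 to under 2500 bases and 0.34 over the 8 of 2500 bases and over, where other genes stood at 0.11, 0.08 and −0.08. By these lengths the medians of the subunit genes were above those of other genes in each length class of OM 24 h. The class of 2500 bases and over is uncertain, with 5 of its 8 subunit genes higher and 3 lower. Lengths are those of the coding transcript numbered first, which need not be the model behind the FPKM. Atp5g1 falls in this class at 4715 bases, where its paralogues Atp5g2 and Atp5g3 have 647 and 714. The part of transcript length in these values was not tested further.

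**Figure D3:**
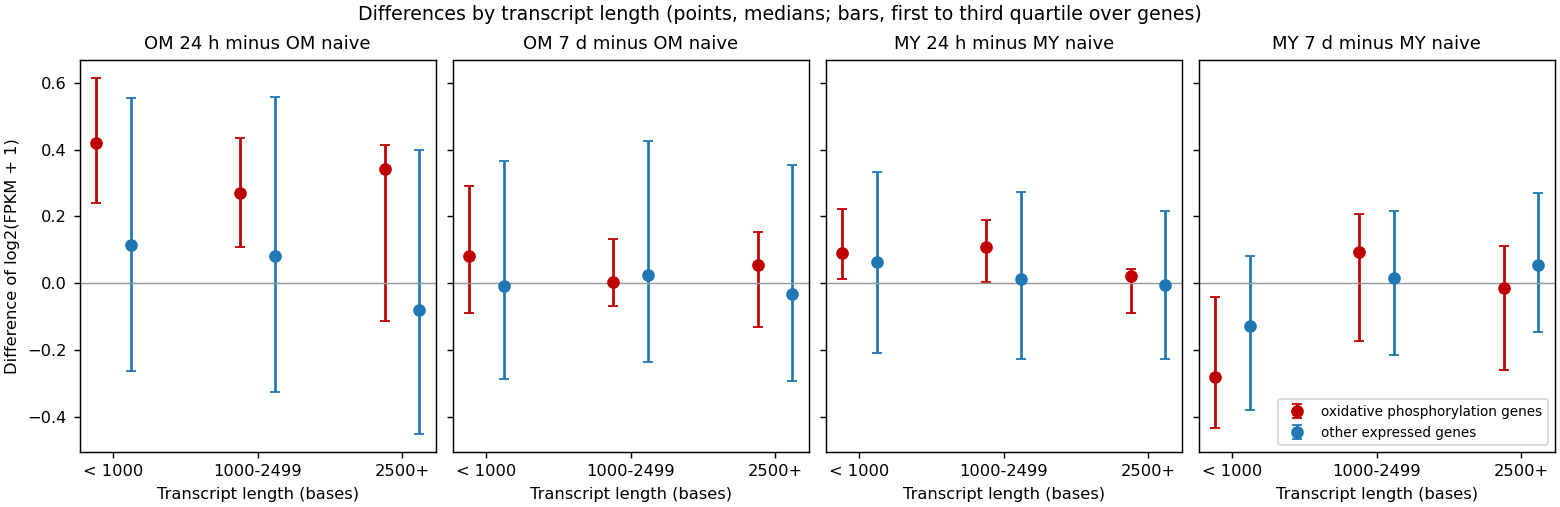
Median difference of log2(FPKM + 1) (points; bars, interquartile range over genes) by transcript length in bases, for the oxidative phosphorylation genes (red) and the other expressed genes (blue), in OM 24 h, OM 7 d, MY 24 h and MY 7 d against the naive library of the same tissue. In OM 24 h the red medians, 0.42, 0.27 and 0.34, are above the blue ones in all 3 classes, and in MY 7 d both short classes are below 0, at −0.28 and −0.13. The longest class holds 8 red genes, and the lengths of some are uncertain.

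The genes that differed most between tissues or times were paralogues of restricted use. Cox4i2, the hypoxia-linked form of subunit 4 (chromosome 2, 152579909 to 152590773 on the plus strand in NCBIM37/mm9), had the largest difference between tissues of the 89. It stood at 0.554, 0.376 and 0.353 FPKM in OM naive, 24 h and 7 d and at 15.8, 17.4 and 7.86 FPKM in MY naive, 24 h and 7 d. The tissues did not overlap, with differences of −3.43 between the naive libraries, −3.74 at 24 h and −2.71 at 7 d. It passed the filter through the mesenteric libraries alone. As a share of Cox4i1 and Cox4i2 together it was 2.24% in MY naive and 0.0913% in OM naive, so Cox4i1 made up nearly all of subunit 4 mRNA in both tissues. Markers of T cells and natural killer cells also stood higher in the mesentery. The 5 T cell markers summed to 666, 379 and 838 FPKM in MY and 87.5, 22.4 and 86.0 FPKM in OM, the 4 natural killer cell markers to 1489, 908 and 765 FPKM in MY and 305, 28.6 and 198 FPKM in OM. The 4 plasmacytoid dendritic cell markers were mixed, with sums of 230.1, 231 and 177 FPKM in MY and 175, 227 and 145 FPKM in OM. Of these, Siglech stood at 29.9, 68.9 and 30.1 FPKM in MY and 1.15, 0.574 and 1.03 FPKM in OM, and Ccr9 was also higher in MY at each time, but Tcf4 stood at 8.81, 8.22 and 10.2 FPKM in MY and 25.7, 11.4 and 14.7 FPKM in OM, and Bst2 was higher in OM at 24 h and 7 d. Their part in the Cox4i2 values was not tested.

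Cox7a1, the heart and muscle form of subunit 7a (chromosome 7, 30969190 to 30971047, plus strand, mm9), differed most after injection of the 89. It stood at 1.87, 13.7 and 23.0 FPKM in OM naive, 24 h and 7 d and at 1.67, 1.67 and 1.05 FPKM in MY, differences of 2.35 and 3.06 in the omentum and 0.00 and −0.38 in the mesentery. Both injected omental libraries were far above the other 4, which lay within 1.05 to 1.87 FPKM. Its share of Cox7a1 and Cox7a2 together was 1.26%, 6.63% and 11.7% in OM and at most 0.968% in MY. The 4 mesothelial markers (Msln, Upk3b, Wt1 and Lrrn4), of which all 4 reached 1 FPKM in each omental library and none in a mesenteric one, summed to 37.6, 306 and 392 FPKM in OM and to at most 0.334 FPKM in MY. The 4 fibroblast markers summed to 314, 202 and 1105 FPKM in OM and to at most 2.49 FPKM in MY. The 3 brown adipocyte markers (Ucp1, Cidea and Elovl3) summed to at most 0.187 FPKM and the 4 striated muscle markers to at most 4.07 FPKM in any library. The part of the mesothelial and fibroblast markers in the Cox7a1 values was not tested.

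Cox6b2, the testis form of subunit 6b (chromosome 7, 4703396 to 4704696, minus strand, mm9), stood at 11.3, 8.97 and 9.99 FPKM in OM and at 3.59, 7.36 and 1.70 FPKM in MY. The omental values lay above the mesenteric ones by a gap of 0.25 between the nearest libraries, and the difference was 1.42 between the naive libraries, 0.25 at 24 h and 2.03 at 7 d. Cox6a2 (chromosome 7, 135348950 to 135349880, minus strand, mm9) was low throughout, at 1.001, 2.61 and 0.883 FPKM in OM and 2.61, 0.436 and 1.20 FPKM in MY, and its tissues overlapped. Ndufa4l2, an inhibitor of complex I induced by hypoxia (chromosome 10, 126951995 to 126954208, plus strand, mm9), stood at 2.83, 0.174 and 3.38 FPKM in OM, was listed at 0 in MY naive and MY 24 h and stood at 0.0332 FPKM in MY 7 d. It passed the filter through OM naive and OM 7 d alone. Its difference in OM 24 h was −1.71. The 5 pericyte and smooth muscle markers summed to 15.8, 12.1 and 25.5 FPKM in OM and at most 1.08 FPKM in MY. Between 2 and 4 of them reached 1 FPKM in an omental library and none in a mesenteric one. In OM naive, 24 h and 7 d, Rgs5 stood at 0.457, 0.0420 and 1.20 FPKM and Pdgfrb at 1.31, 0.649 and 3.60 FPKM. Acta2 stood at 11.8, 9.14 and 16.8 FPKM and Cspg4 at 0.195, 0.188 and 0.365 FPKM. Myh11, at 1.98, 2.10 and 3.52 FPKM, was not lower at 24 h. Their part in the Ndufa4l2 values was not tested.

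**Figure D4:**
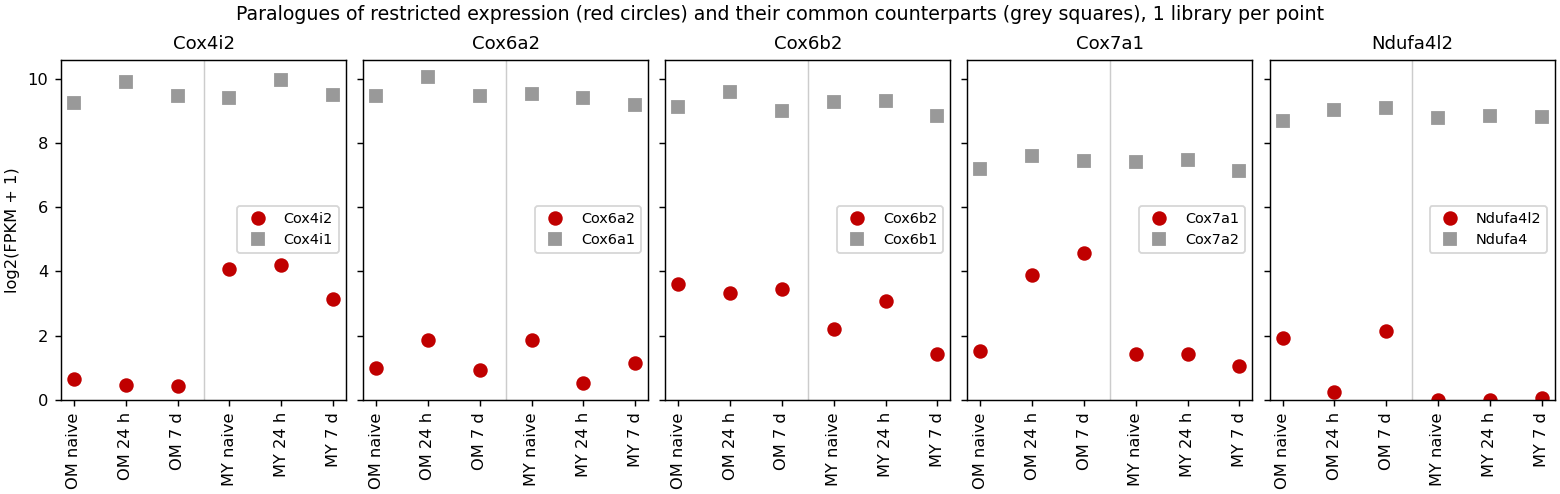
Level as log2(FPKM + 1) (vertical axis) of 5 paralogues of restricted expression (red circles) and their common counterparts (grey squares) in each of the 6 libraries (1 point per library, no replicates; OM left and MY right of the grey line). Cox4i2 is near 0 in OM and at 7.86 to 17.4 FPKM in MY, and Cox7a1 reaches 13.7 and 23.0 FPKM in OM 24 h and OM 7 d, while the counterparts stay higher in every library.

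Between tissues the median differences were small. In OM naive against MY naive the median was −0.12, with 25 of 89 higher against 50.5% of all genes. The 905 other genes averaging at least 100 FPKM stood at 0.22, with 65.2% higher. Rescaled to equal sums, all genes stood at −0.19 and the 89 genes at −0.36, with 7 of 89 higher against 34.8% of all genes. Cox6b2 and Ndufa4l2 were at least 2-fold higher in OM naive, where 8.18% of all genes were, and Cox4i2 at least 2-fold lower, where 8.05% were. At 24 h the median was 0.16 in OM against MY, with 65 higher against 50.2% of all genes. After rescaling it was −0.16, where all genes stood at −0.27, with 23 higher against 35.2% of all genes. Cox6a2 and Cox7a1 were above MY 24 h by 2-fold or more, where 13.9% of all genes were, and Cox4i2 at least 2-fold lower, where 10.2% were. At 7 d the median was 0.09, with 57 higher against 48.5% of all genes. After rescaling it was 0.03, with 47 higher against 44.1% of all genes. The sign at 7 d differed between length classes, of which the longest is uncertain as described above. The median was 0.22 with 42 of 50 higher under 1000 bases, −0.10 with 8 of 28 higher at 1000 to under 2500 bases and 0.11 with 6 of 8 higher from 2500 bases, where other genes stood at 0.09, 0.00 and −0.05. Cox6b2, Cox7a1 and Ndufa4l2 were at least 2-fold higher in OM 7 d, where 14.1% of all genes were, and Cox4i2 and Ndufs5 at least 2-fold lower, where 4.99% were. Ndufs5, an accessory subunit of complex I, stood at 12.6, 14.3 and 8.56 FPKM in OM and 15.6, 12.3 and 21.2 FPKM in MY. Over the 3 libraries of each tissue, 11 genes (12.4%) had every omental value above every mesenteric one, where 16.7% of all genes did, and 7 (7.87%) had every omental value below, where 17.7% did. The 11 were Atp5g1, Cox6b2, Cox7a1, Cox7b, Ndufa12, Ndufa4l2, Ndufa7, Ndufaf2, Ndufb6, Ndufc2 and Ndufs8. The 7 were Atp5s, Atp5sl, Cox4i2, Ndufaf6, Ndufs1, Ndufs3 and Sdha. Both shares lay below those of all genes, and apart from Cox4i2, whose nearest omental library lay at −2.51 from the nearest mesenteric one, the gap was at most 0.25.

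The promoters of common subunits with large differences in OM 24 h, or of paralogues whose restricted use is described above, are shown because binding sites for nuclear respiratory factor 1 (NRF1) and for the ETS factor GABP are known features of respiratory chain promoters. The RefSeq promoter table (GRCm38.p6, which is not the build of the positions above) held 71 of the 89 genes. Cox4i2, Cox6a2 and Ndufa4l2 were among those without an entry. The windows run 5′ to 3′ on the gene's strand over the 250 bases before the start, and capitals mark a match to an NRF1 core.
Ndufb8 (chr19:44555443-44555692, minus strand), Ndufa8 (chr2:36049339-36049588, minus strand) and Ndufc2 (chr7:97399753-97400002, plus strand) are the 3 subunits with the largest difference in OM 24 h once the restricted paralogues are left out (Cox7a1 at 2.35 and Cox6a2 at 0.85 were above Ndufa8 and Ndufc2).
Ndufb8: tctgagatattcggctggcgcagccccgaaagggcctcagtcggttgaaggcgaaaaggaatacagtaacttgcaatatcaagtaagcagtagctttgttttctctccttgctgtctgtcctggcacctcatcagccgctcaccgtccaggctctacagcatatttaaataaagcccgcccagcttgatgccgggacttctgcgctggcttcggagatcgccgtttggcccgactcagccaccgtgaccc
Ndufa8: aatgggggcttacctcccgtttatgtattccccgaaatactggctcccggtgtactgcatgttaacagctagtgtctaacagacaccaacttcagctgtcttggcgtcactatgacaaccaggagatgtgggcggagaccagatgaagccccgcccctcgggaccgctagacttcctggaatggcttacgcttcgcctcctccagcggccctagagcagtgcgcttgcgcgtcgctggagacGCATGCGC
Ndufc2: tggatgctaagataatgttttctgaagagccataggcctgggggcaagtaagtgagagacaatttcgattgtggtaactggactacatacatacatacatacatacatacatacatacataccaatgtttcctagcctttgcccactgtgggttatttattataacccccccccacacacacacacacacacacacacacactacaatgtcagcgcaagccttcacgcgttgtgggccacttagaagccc
Cox7a1 (chr7:30183921-30184170, plus strand) and Cox6b2 (chr7:4753095-4753344, minus strand) are the restricted paralogues with an entry.
Cox7a1: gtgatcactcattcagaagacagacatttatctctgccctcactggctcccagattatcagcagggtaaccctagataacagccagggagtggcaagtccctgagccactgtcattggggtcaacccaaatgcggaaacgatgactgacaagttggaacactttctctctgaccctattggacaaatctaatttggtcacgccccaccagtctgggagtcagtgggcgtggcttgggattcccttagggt
Cox6b2: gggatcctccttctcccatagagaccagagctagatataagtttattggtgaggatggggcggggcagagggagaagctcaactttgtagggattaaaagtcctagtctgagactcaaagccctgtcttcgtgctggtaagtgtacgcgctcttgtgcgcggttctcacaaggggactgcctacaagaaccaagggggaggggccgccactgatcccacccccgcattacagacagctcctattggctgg
Ndufa8 alone of these 5 held a match in the bases shown, on the other strand and at the end of its window. Each motif was searched on both strands over the 250 bases before and 50 after the start. The NRF1 core GCGCATGC was present in 12 of the 71 promoters (16.9%), against 5.79% of the promoters of the 9774 expressed genes found and 3.05% of those of the 27025 genes in the table. The GABP core CCGGAAG was present in 17 (23.9%), against 19.5% of expressed genes and 9.93% of all. The YY1 core AAGATGG was present in 10 (14.1%), against 8.3% and 7.28%. The TATA box, as TATAAAA, was present in 2 (2.82%), against 3.26% and 6.39%. The NRF1 core can overlap itself on the other strand, and the other motifs were counted independently. Of the structural subunits with a promoter, the 10 with an NRF1 core gave 0.50 as their median in OM 24 h against naive and the 54 without one 0.37. The split by GABP core was similar, at 0.47 for the 16 with one and 0.34 for the 48 without. In MY 7 d against naive the medians with and without an NRF1 core were −0.24 and −0.16, and those for GABP −0.16 and −0.15. The motif matches are letters in a window and do not show binding.

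Other mitochondrial genes set the subunits in context. In OM 24 h against naive the medians of 15 lists of related genes ranged from −0.47 to 0.57, and 7 of them changed sign when the libraries were rescaled to equal sums. The 77 mitochondrial ribosomal protein genes had a median of 0.12 with 48 higher, the 17 TCA cycle enzymes 0.02, the 17 mitochondrial import genes 0.16 and the 38 proteasome genes 0.13, and all 4 of these medians turned negative under the rescaling. The 17 complex IV assembly genes stood at 0.06, also negative after rescaling, and the 7 complex I assembly genes outside the Nduf symbols at −0.01, so both sets of assembly genes lay below the subunits. The 82 cytosolic ribosomal protein genes stood at −0.47 in OM 24 h, with 4 higher, and at −0.35 in OM 7 d, and at 0.20 and 0.23 in the mesentery at 24 h and 7 d. In the naive libraries they were 0.55 higher in the omentum, with 80 of 82 higher. The mitochondrial antioxidant list (8 genes) stood at 0.57 in OM 24 h, with 6 higher, and the 4 genes of ATP synthase assembly and regulation at 0.45, with 3 higher. The 7 electron carrier and uncoupling genes stood at 0.29, the 9 genes of mitochondrial fission, fusion and mitophagy at 0.15 and the 13 fatty acid oxidation genes at 0.12, and the last 2 of these medians turned negative under the rescaling. The 6 complex III genes outside the Uqcr symbols stood at −0.02 and the 2 complex II assembly genes at −0.06. In the mesentery at 7 d the TCA list stood at 0.29, with 15 of 17 higher, where complex IV stood at −0.38.

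Few single genes of these lists were at least 2-fold apart in the omentum. In the TCA list it was Idh2, the mitochondrial NADP-dependent isocitrate dehydrogenase, at 36.6, 130 and 103 FPKM in OM naive, 24 h and 7 d. In the antioxidant list Prdx5, a peroxiredoxin, went from 261 FPKM in OM naive to 875 FPKM in OM 24 h, and the mitochondrial peroxiredoxin Prdx3 from 80.5 FPKM to 172 FPKM in OM 7 d. Atpif1, which encodes an inhibitor of ATP synthase hydrolysis, went from 278 to 639 FPKM in OM 24 h. In fatty acid oxidation, Acaa2, the mitochondrial thiolase, went from 53.6 to 123 and 130 FPKM, Cpt1a, which controls entry of long-chain fatty acids, from 16.8 to 35.1 and 39.4 FPKM, and Echs1, the enoyl-CoA hydratase, from 39.3 to 87.4 FPKM in OM 24 h. Bnip3, a mitophagy receptor, went from 6.76 to 17.8 FPKM in OM 24 h. Some of these genes were also higher in the mesentery. In MY 24 h against naive the difference was 1.03 for Cpt1a, 0.98 for Bnip3, 0.76 for Idh2, 0.66 for Prdx5 and 0.43 for Atpif1. In MY 7 d against naive it was 0.99 for Cpt1a, −0.26 for Prdx5 and −0.37 for Atpif1. Of the ribosomal and proteasome lists, Rps4l was at 43.7, 19.6 and 16.6 FPKM, Rpl26 went from 5.10 to 12.3 FPKM at 7 d and Psma8 from 0.610 to 2.57 FPKM at 24 h.

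The regulators of mitochondrial biogenesis did not stand higher with the subunits in OM 24 h. The 13 of them that passed the filter had a median of −0.38, with 4 higher. Tfam, the mitochondrial DNA transcription and packaging factor, stood at 12.7, 6.97 and 10.2 FPKM in OM and 14.7, 12.04 and 15.2 FPKM in MY, so OM 24 h was the lowest library. Ppargc1b, a coactivator of respiratory genes, stood at 1.80, 3.89 and 2.34 FPKM in OM and 3.51, 4.77 and 4.69 FPKM in MY, and its relative Ppargc1a reached at most 0.843 FPKM. Cyc1, the cytochrome c1 subunit of complex III that the symbol rule leaves out, stood at 117, 171 and 149 FPKM in OM and 146, 134 and 147 FPKM in MY, a difference of 0.55 in OM 24 h. Cycs, the mobile cytochrome c, was lower and level, between 15.1 and 20.4 FPKM. Ucp2, an inner membrane carrier, stood at 455, 602 and 325 FPKM in OM and 440, 795 and 559 FPKM in MY, and Sod2, the mitochondrial superoxide dismutase, at 19.8, 31.9 and 21.9 FPKM in OM and 20.5, 23.6 and 20.8 FPKM in MY. In both of these genes the 24 h library was the highest of its tissue.

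**Figure D5:**
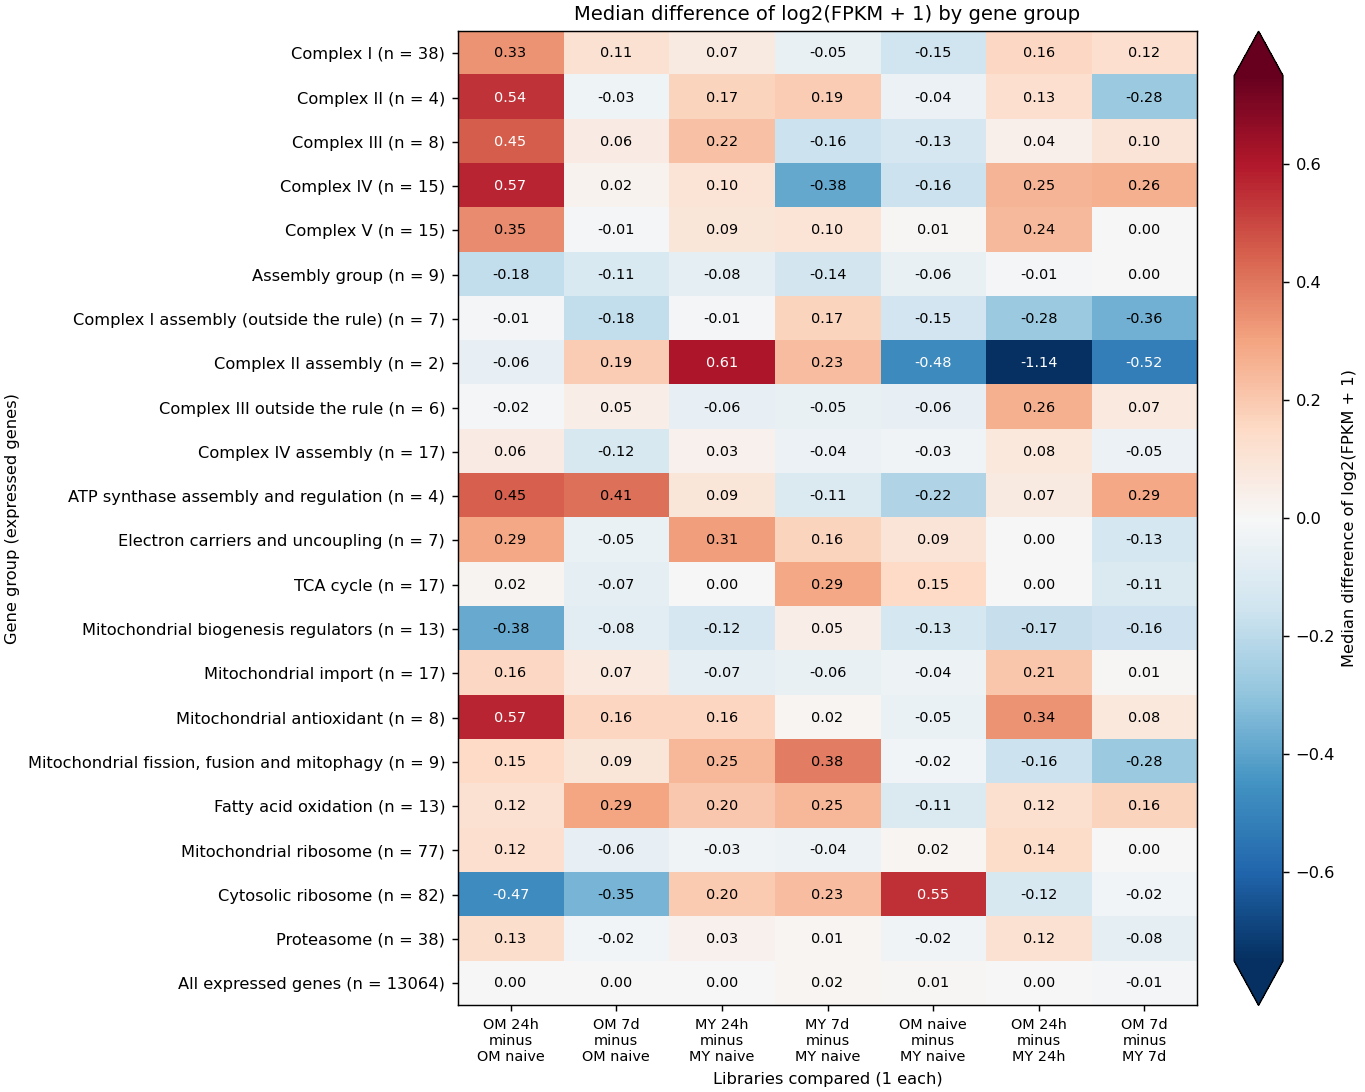
Median difference of log2(FPKM + 1) (colour and number) for each complex, the assembly group, 15 lists of related genes and all expressed genes (rows, with the number of genes) in the 7 pairs of libraries compared (columns). In OM 24 h against OM naive complexes I to V lie at 0.33 to 0.57, the cytosolic ribosome at −0.47 and all genes at 0.00; under a rescaling to equal sums 7 of the 15 list medians in that column change sign, those of complexes I to V do not.

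Some of these values are less certain because the genes have near copies in the genome. For 6 members more than 50% of the 75-base windows of the transcript also occur elsewhere in the mm9 assembly: Atp5g2 (100%), Atp5l (85.8%), Ndufs5 (73.4%), Cox7c (70.0%), Cox5b (50.6%) and Atp5h (50.3%). How reads that match several places were shared out is not given in the sources used here, so the values of these genes, including the difference of Ndufs5 between tissues at 7 d, are uncertain. Without these 6, 83 genes remained and 70 of them were higher in OM 24 h than in OM naive.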

How the data were processed

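RNA of sorted macrophages was measured in 6 libraries, 1 per condition. The authors used FastQC 0.11.4 for read quality, STAR 2.4.2a with UCSC gene models for alignment to the mm9 assembly, and Cufflinks for FPKM, which were deposited as 1 table with a row per symbol. FPKM hold no read counts, so depth per gene is unknown and no count model was run.

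Differences of log2(FPKM + 1) between pairs of libraries were computed with Python 3.11.15, numpy 2.4.6 and pandas 2.3.3, and figures drawn with matplotlib 3.10.9. Genes that reached 1 FPKM in some library were compared, in 7 pairs of libraries, with a threshold of 2-fold taken from the study's methods. The counting step was tested on simulated data. Transcript lengths, positions and genome copies came from GENCODE M1 and NCBIM37, using the coding transcript numbered first, and promoters from RefSeq (GRCm38.p6). Genes named are the highest and lowest of each complex, all members past 2-fold, the paralogues, complex II, the list genes past 2-fold in the omentum, selected regulators and the sort markers, and any other gene was picked with its values in view. One marker gene of the lists is not reported here. The members and lists were chosen with earlier results of these data known, and the length classes and the copy filter were added after the data were seen. The comparison with other genes averaging at least 100 FPKM was not among those set in advance. Alternatives were pseudocounts of 0.1 and 5, other filters, a median-ratio scaling, a rescaling to a sum of 1000000, structural subunits alone, tissue means and a 1.5-fold threshold.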

Additional observations from a re-analysis of the deposited data

Results flagged for a closer look

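Cox6a2, the muscle form of complex IV subunit 6a, differed in opposite directions at 24 h in the 2 tissues. It was 0.85 higher on the log2(FPKM + 1) scale in OM 24 h than in OM naive, and the difference in MY 24 h against MY naive was −1.33. By any amount, 18 of the 89 genes were higher in OM and lower in MY at 24 h, where 18.4% of all genes were. The difference between the tissues was not tested, since each condition has 1 library, and all 6 values of this gene lie at or below 2.61 FPKM.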

How the results depend on the processing

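Of 1562 values recomputed under the alternatives, 1504 stayed within 1.5-fold, or 0.58 on the log2 scale, of the reported value and 58 moved, with none of the differences past 2-fold changing sign. All 969 medians stayed within that margin. The margin was larger than any reported median of a complex or of the 89 genes (at most 0.57), so this says little about them. The rescaling to a sum of 1000000 changed the sign of some medians of the 5 complexes and the assembly group. Against naive it changed 3 of 6 in OM 7 d and in MY 24 h, and 0 of 6 in OM 24 h and in MY 7 d. Between tissues it changed 5 of 6 at 24 h, and 1 of 6 in the naive libraries and at 7 d. Over the 89 genes, 3 of 52 medians changed sign. They were MY 24 h against naive (−0.04) and OM 24 h against MY 24 h (−0.16) under this rescaling, and OM naive against MY naive (0.06) with tissue means. The 89-gene median in OM 24 h against naive ranged from 0.15 to 0.39. The 21 values of the alternatives chosen after seeing the data also stayed within the margin, but not all kept their sign. With only the 36 members of at least 1000 bases, 19 were higher in MY 7 d than in MY naive, against 52.1% of all genes, and the median turned positive. In OM 7 d against MY 7 d 14 of these 36 were higher, against 48.5% of all genes, and the median turned negative.

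The counts of genes past 2-fold rest on 1 to 3 genes each. With a pseudocount of 0.1 there were 2 higher in OM 24 h, 1 higher in MY 24 h, 2 lower in MY 7 d and 2 lower in OM naive against MY naive. With a pseudocount of 5 there were 0 lower in OM 24 h, 0 lower in MY 24 h, 0 higher in OM naive against MY naive, 1 higher in OM 24 h against MY 24 h and 1 lower in OM 7 d against MY 7 d. With a minimum of 1 FPKM in all libraries there were 0 lower in OM 24 h, 0 lower in MY 24 h, 1 higher and 0 lower in OM naive against MY naive, 1 higher and 0 lower in OM 24 h against MY 24 h and 1 lower in OM 7 d against MY 7 d. With structural subunits only there were 0 lower in OM 24 h and 1 higher in OM naive against MY naive. The counts at a 1.5-fold threshold follow, with the share of all genes in brackets. Against naive there were 20 higher in OM 24 h (20.8%), 2 higher in OM 7 d (18.4%), 2 higher in MY 24 h (8.83%) and 4 lower in MY 7 d (7.85%). In OM naive against MY naive 4 were lower (15.4%). In OM 24 h against MY 24 h 9 were higher (22.9%) and 2 lower (19.7%). In OM 7 d against MY 7 d 5 were higher (20.4%). Rescaling to a sum of 1000000 gave 3 lower in OM naive against MY naive and summed FPKM of 26654 in OM naive, 31518 in OM 7 d, 34360 in MY naive, 34608 in MY 24 h and 30620 in MY 7 d, which follows from the scaling. Of the values of single paralogues, 26 moved, 10 with a pseudocount of 0.1, 13 with one of 5 and 3 under the rescaling.

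The labels give no replicate numbers, so no replicate block was fitted, and the 3 omental and mesenteric pairs of the same time were compared 1 by 1, with no paired test run. With 1 library per condition no spread between replicates is known, and differences of the size reported for the complexes cannot be told apart from differences between pools. FPKM give no depth, so the precision of the low genes Cox4i2, Cox6a2, Cox7a1 and Ndufa4l2 is unknown.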
